A study of Homo sapiens with 30 samples.

Results

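Of the 57616 ATAC-seq peaks called in RWPE1-mAKT cells on chromosomes 1 to 22 and X, 9496 (16.5%, 95% Wilson interval 16.2 to 16.8) shared no base with any peak called in RWPE1-ERG cells or in RWPE1-ERG+mAKT cells. These 9496 regions, called mAKT-alone peaks here, were chosen by the overlaps between the 3 lists, so their number, width and enrichment are given as a description and carry no test. Of the other RWPE1-mAKT peaks, 34701 overlapped a peak in both other lines, 11020 in RWPE1-ERG alone and 2399 in RWPE1-ERG+mAKT alone. Intervals throughout cover counting error only, since each line had 1 ATAC-seq library.

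RWPE1 is an immortalized line of normal prostate epithelial cells. The 4 lines of the ATAC-seq and RNA-seq carried a pair of retroviral vectors and grew under puromycin and hygromycin in keratinocyte serum-free medium with EGF and pituitary extract. RWPE1-mAKT cells, labelled RWPE1+mAKT for ATAC-seq, expressed AKT made constitutively active by a myristoylation signal, with an empty second vector. RWPE1-ERG cells expressed FLAG-tagged ERG isoform 1 with an empty second vector, RWPE1-ERG+mAKT cells expressed both proteins, and RWPE1-Vector cells carried both vectors empty. Each line was a drug-selected population of transduced cells in which retroviral vectors drove the introduced proteins. ATAC-seq gave 1 library per line, and RNA-seq gave 3 libraries per line, whose FPKM was deposited as 1 pooled value per line. Cells with ERG S96E, a mutant of isoform 1 that mimics phosphorylation, entered only through a list of H3K27me3 ChIP-seq regions, and the labels of the 3 H3K27me3 samples name the first vector alone. No ATAC-seq list of RWPE1-Vector cells under that label was analysed here.

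AKT is a kinase that acts downstream of PI3K and promotes growth and survival. ERG, a DNA-binding protein of the ETS family, is switched on by gene fusions in prostate cancer. ATAC-seq marks accessible DNA, where a transposase can insert, and many accessible sites away from gene starts are enhancers whose DNA is held open by transcription factors such as AP-1, the dimer of FOS and JUN proteins. EZH2, the enzyme of Polycomb repressive complex 2, places H3K27me3, a histone mark of silent chromatin.

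The 2 sequences that follow show contrasting kinds of mAKT-alone peak. The first is the middle of the widest one, and the second is from the most enriched of those that also overlapped an ERG ChIP-seq peak of RWPE1-ERG+mAKT cells. Both are plus strands of GRCh37 (hg19), read 5′ to 3′, as the central 300 bases. Capitals would mark AP-1, ETS and CTCF sequences, and neither window holds one of the kinds searched.
chr7:154452925-154453224, an intron of DPP6: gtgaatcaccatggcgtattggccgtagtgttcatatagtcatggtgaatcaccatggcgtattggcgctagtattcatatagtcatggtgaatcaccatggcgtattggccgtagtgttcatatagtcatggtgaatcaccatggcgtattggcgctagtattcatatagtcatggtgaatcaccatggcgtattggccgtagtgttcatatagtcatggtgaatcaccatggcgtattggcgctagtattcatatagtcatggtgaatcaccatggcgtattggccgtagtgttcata
chr7:51670207-51670506, 285689 bp from COBL: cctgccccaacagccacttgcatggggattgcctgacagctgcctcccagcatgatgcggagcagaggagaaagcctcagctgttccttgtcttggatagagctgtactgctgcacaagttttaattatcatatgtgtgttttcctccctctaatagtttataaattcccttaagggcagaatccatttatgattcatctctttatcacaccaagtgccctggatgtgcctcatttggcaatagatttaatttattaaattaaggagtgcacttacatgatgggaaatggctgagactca
The DPP6 window is a tandem repeat, since shifted by 88 bp it is 100% identical to itself.

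Levels of the introduced genes matched the line labels, and the cells had the keratins of prostate epithelium. ERG FPKM was 0.264 in RWPE1-Vector, 358 in RWPE1-ERG, 0.435 in RWPE1-mAKT and 328 in RWPE1-ERG+mAKT. AKT1 FPKM was 58.7, 64.2, 156 and 281 in the same order, and the deposited values do not separate the introduced from the cell's own transcript. KRT5, a basal keratin, had an FPKM between 1170 and 3642 in the 4 lines, and KRT8, a luminal keratin, between 622 and 1769. Among leukocyte markers, PTPRC, ITGAM and CD3E were at most 0.029, CSF1R was 0.305 to 0.313, LYZ 0.299 to 0.592 and CD14 0.505 to 1.09. CD68, which is also a lysosomal protein of other cells, was 24.3 to 28.9.

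A list whose label names VCaP cells, the PI3K inhibitor LY294002 and an ERG ChIP holds 55471 peaks on these chromosomes, and all of them carry names of an RWPE1 ATAC-seq run. Its line cannot be told from the label, so it was placed in no group. It covered 3919 mAKT-alone peaks (41.3%, interval 40.3 to 42.3) and left 5577 uncovered (58.7%), against 96.7% covered of the peaks shared by all 3 lines, 77.6% of those shared with RWPE1-ERG alone and 67.8% of those shared with RWPE1-ERG+mAKT alone. A mAKT-alone peak is therefore a peak without overlap in the lists of 2 ERG-expressing lines, and these files do not show it to be open only in cells with active AKT. Values without the covered peaks are given beside the results they touch.

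The mAKT-alone peaks were narrow and of low enrichment. Their width ran from 209 to 2071 bp with a median of 305 bp, and the middle 50% lay between 248 and 405 bp. Peaks shared by all 3 lines had a median width of 607 bp, those shared with RWPE1-ERG alone 356 bp and those shared with RWPE1-ERG+mAKT alone 373 bp. Fold enrichment, the pileup of fragments over the local background that MACS2 modelled, ran from 1.58 to 12 with a median of 4.08, against medians of 6.12, 4.52 and 4.71 in the same 3 classes. The deposited pileup, a height of signal and not a count of fragments per peak, had a median of 17.9, against 47.5 in peaks of all 3 lines. The −log10 q-value had a median of 6.02 against 23.2. The whole RWPE1-mAKT list reached down to a −log10 q-value of 2.01, and 6840 mAKT-alone peaks were at 4 or above. Outside the list under the VCaP label, the 5577 peaks had medians of 287 bp and 3.85-fold.

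**Figure D1:**
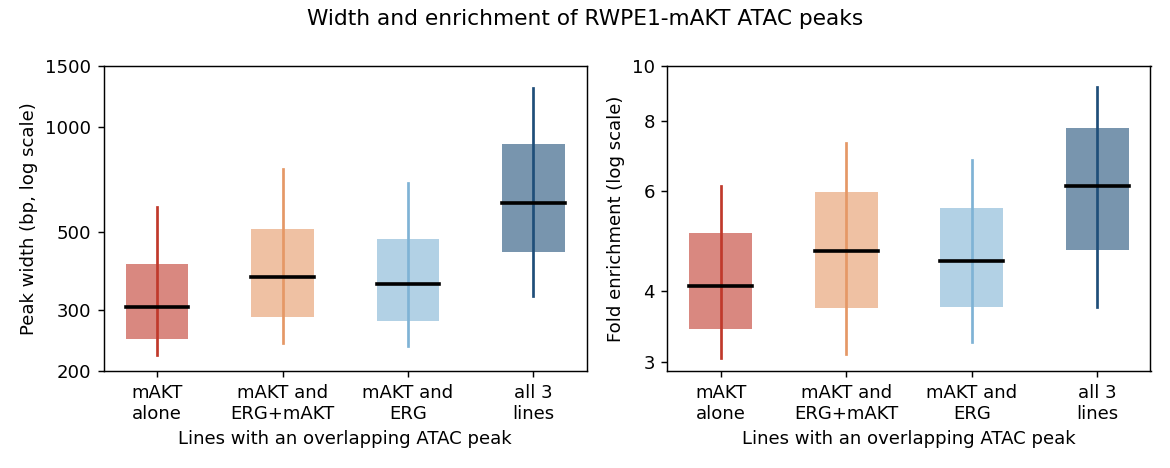
Width in bp (left, log scale) and fold enrichment (right, log scale) of RWPE1-mAKT ATAC-seq peaks by the lines with an overlapping peak. Black lines are medians, boxes the middle 50% and thin lines the 10th to 90th percentiles. The mAKT-alone peaks have the lowest median of the 4 classes on both axes, 305 bp and 4.08, and peaks of all 3 lines the highest, 607 bp and 6.12.

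The lists differed in length, which bears on what an absent overlap means. RWPE1-ERG had 62950 peaks covering 37.6 Mb, RWPE1-mAKT 57616 covering 34.6 Mb and RWPE1-ERG+mAKT 41731 covering 23.3 Mb. Only the RWPE1-mAKT file states its depth, 35688481 fragments, and the depth of the other 2 lists is unknown, so fewer open sites and a shallower library cannot be told apart. When each list was cut to its 33000 peaks of lowest p-value, 4207 peaks were mAKT-alone.

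Few mAKT-alone peaks lay close to the border that the rule drew. The median distance to the nearest peak of either ERG-expressing line was 10100 bp, 16 peaks (0.168%) had one within 100 bp, 49 within 500 bp and 243 (2.56%) within 1 kb. The nearest miss was chr5:177729076-177729316, a peak of 241 bp and fold enrichment 3.46 near COL23A1, with a gap of 5 bp. On the other side, chr6:170598418-170598679, 262 bp and fold enrichment 2.89 near DLL1, was left out for an overlap of 1 bp. Within 10 kb, 49.7% of mAKT-alone peaks had a peak of either ERG-expressing line, and within 100 kb 96.5% did.

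Most mAKT-alone peaks lay away from gene starts. Only 531 (5.59%, interval 5.15 to 6.07) were within 1 kb of an annotated gene start, against 33.7% of peaks of all 3 lines, 9.62% of those shared with RWPE1-ERG alone and 6.13% of those shared with RWPE1-ERG+mAKT alone. Among the 8675 peaks of all 3 lines whose enrichment fell in the middle 50% of the mAKT-alone range, 3.43 to 5.06, the share was 34.2%, so the gap remained at like enrichment. Width and pileup were not matched. These 8675 peaks had medians of 632 bp and 29.8, against 302 bp and 16.2 for mAKT-alone peaks in that range. Outside the list under the VCaP label 4.48% of mAKT-alone peaks were that close. The median distance to a gene start was 22633 bp, against 8711 bp for peaks of all 3 lines. A position inside a gene of the expression table was held by 50.4%, against 64%, and 18% were more than 50 kb from any such gene, against 11.8%. GC content of the central 300 bp had a median of 47.7% against 55.3%.

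The share of RWPE1-mAKT peaks that were mAKT-alone varied between chromosomes. It was lowest on chromosome 22, at 9.99% (interval 8.31 to 12), and highest on chromosome 21, at 20.1% (17.4 to 23.1), with 11.3% on X. All chromosomes together held 3.13 mAKT-alone peaks per Mb, from 0.979 on X to 5.89 on chromosome 20. The peaks were mostly scattered. Joined where neighbours lay within 50 kb, they formed 7021 runs, of which 5306 held 1 peak and 59 held 5 or more.

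The longest run lay in the epidermal differentiation complex, the cluster of genes for the proteins of the cornified envelope. It held 10 mAKT-alone peaks between chr1:152828162 and chr1:153003699, a span of 176 kb. Of the 16 RWPE1-mAKT peaks in that span, 10 were mAKT-alone, 5 were shared by all 3 lines and 1 with RWPE1-ERG alone. In the same span RWPE1-ERG had 7 peaks and RWPE1-ERG+mAKT had 5. The nearest genes were LCE6A, SMCP, IVL, SPRR4, SPRR1A, SPRR3 and SPRR1B. The strongest was chr1:152904726-152905869, 1144 bp wide with a fold enrichment of 7.2, in an intron of LINC01527 and 20364 bp from IVL, the gene of the envelope protein involucrin. The peaks at chr1:152956329-152956564 and chr1:153003474-153003699 touched the 5′ ends of SPRR1A and SPRR1B, genes of small proline-rich envelope proteins, with fold enrichments of 3.64 and 3.23. Of the 10 peaks, 4 held an AP-1 sequence and 5 were covered by the list under the VCaP label. The next runs held 9 peaks on chromosome 19 from 15186588 to 15342378, and 8 each around PKP1, the gene of the desmosomal protein plakophilin, on chromosome 1 from 201246099 to 201376562, and on chromosome 10 from 132727922 to 132883350.

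AP-1 was the sequence most concentrated at the centre of mAKT-alone peaks. Of the 11 kinds searched on both strands, it (TGACTCA or TGAGTCA) was in the central 300 bp of 2328 peaks (24.5%, interval 23.7 to 25.4), against 4.88% of windows of the same length 2 kb to either side. Counted in bins of 100 bp, there were 102 AP-1 matches per 1000 peaks in each of the 2 bins next to the centre and 13.6 to 14.7 at a distance of 900 to 1000 bp. The share was 20.8% in peaks of all 3 lines, 20.7% in those shared with RWPE1-ERG alone and 32.6% in those shared with RWPE1-ERG+mAKT alone. At like enrichment it was 25.7% (interval 24.5 to 27) of mAKT-alone peaks and 15.9% (15.1 to 16.7) of peaks of all 3 lines. Leaving out peaks within 1 kb of a gene start turned the order, with 25.2% (24.3 to 26.1) of mAKT-alone peaks and 29% (28.4 to 29.5) of peaks of all 3 lines. In the 5577 peaks outside the list under the VCaP label the share was 25.9%.

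**Figure D2:**
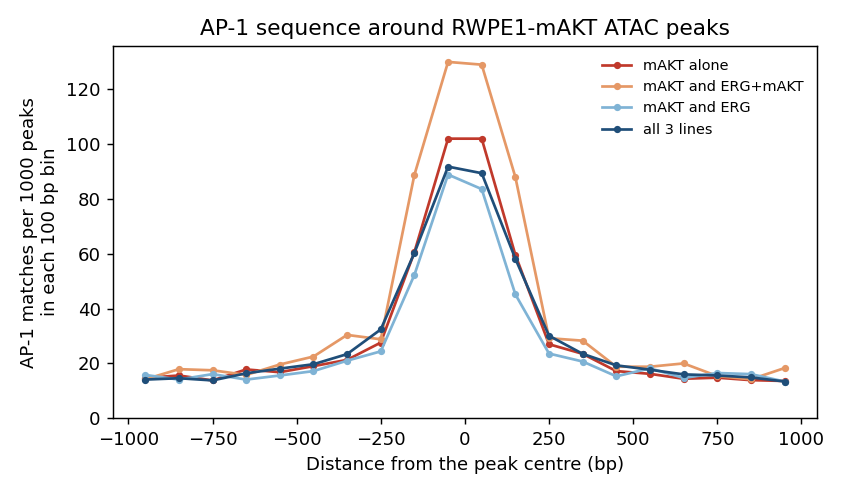
AP-1 matches (TGACTCA or TGAGTCA, both strands) per 1000 RWPE1-mAKT ATAC-seq peaks in bins of 100 bp, by distance from the peak centre in bp, with 1 line per class of peak. All 4 classes rise to a maximum at the centre, at 102 for mAKT-alone peaks, and come down to about the same level at 1000 bp.

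AP-1 went with enrichment inside the set. Split into 4 equal groups of 2374 peaks by rising fold enrichment, the mAKT-alone peaks held an AP-1 sequence in 14.6%, 22.4%, 29% and 32.1%. Over the same groups the share within 1 kb of a gene start went from 8.51% to 5.9%, 4.59% and 3.37%, and the share holding the SP/KLF sequence (GGGCGGG), typical of promoters, from 8.17% to 4.3%. The share covered by the list under the VCaP label went from 27% to 33.7%, 44.4% and 59.9%, so the strongest mAKT-alone peaks were also those most often called in that other list.

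Other factor sequences were less concentrated. TEAD (ACATTCC) was in 7.68% of mAKT-alone peaks and 4.14% of their flanks, RUNX (TGTGGTT) in 7.82% and 5.25%, and the p53 family sequence in 4.33% and 2.11%. CTCF (AGGTGGCAG or AGGGGGCGC), the insulator protein's core, was in 2.21% and 0.921%, about the share in peaks of all 3 lines, 2.42%. ETS (CCGGAAGT, ACGGAAGT or CAGGAAGT), the kind of sequence ERG binds, was in 2.69% of mAKT-alone peaks and 2.13% of flanks, against 5.87% of peaks of all 3 lines. FOX (TGTTTAC or TGTTTGC), which includes the sequence read by the AKT-restrained FOXO factors, was in 9.81% and 8.63%. CEBP (TTGCNNCAA) at 3.11% and 2.9% and GRHL (AACCNGGTT) at 0.232% in both windows differed from their flanks by less than the intervals, and AGATAA, which the GATA factors bind, was lower at the centre, 13.8% against 17.4%. SP/KLF was in 5.89% and 2.42%, against 22.3% of peaks of all 3 lines. A window could hold several kinds, and their matches may overlap.

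ERG and ERK2 binding was rarely called at mAKT-alone peaks. The ERG ChIP-seq list of RWPE1-ERG+mAKT cells had a peak under 45 of them (0.474%, interval 0.354 to 0.633), against 1.29% of peaks shared with RWPE1-ERG+mAKT alone and 4.11% of peaks of all 3 lines. ERK2, the kinase that phosphorylates ERG, had a peak under 2.29% in RWPE1-Vector and under 0.527% in RWPE1-ERG cells, against 8.31% and 5.75% of peaks of all 3 lines. Peaks shared with RWPE1-ERG alone had similarly low shares, 0.681% for ERG and 2.94% and 0.526% for ERK2. Low shares were therefore not particular to mAKT-alone peaks. For ERK2, peaks shared with RWPE1-ERG+mAKT alone had 3.58% and 2.13%. At like enrichment the shares in peaks of all 3 lines were 4.03% for ERG and 8.55% and 6.71% for ERK2. Those peaks were wider, with a median of 632 bp against 302 bp for mAKT-alone peaks in that range, so they had more bases to overlap. In the central 300 bp, ERG peaks were at 0.421% of mAKT-alone peaks and 0.221% of flanks, against 2.86% and 0.284% for peaks of all 3 lines. The ChIP-seq lists reach down to a −log10 q-value of 0. With a limit of 2, the shares of mAKT-alone peaks were 0.0211% for ERG and 0.0316% and 0.0211% for ERK2 in RWPE1-Vector and RWPE1-ERG cells. Outside the list under the VCaP label the unlimited shares for ERK2 were 1.97% and 0.377%.

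H3K27me3 lay over mAKT-alone peaks more often than over peaks of all 3 lines. In RWPE1-Vector cells, 13.1% (interval 12.5 to 13.8) overlapped an H3K27me3 region, against 5.9% of peaks of all 3 lines, or 7.67% of those at like enrichment, and 10.8% (10.3 to 11.4) of peaks shared with RWPE1-ERG alone. Outside the list under the VCaP label the share of mAKT-alone peaks was 14%. In RWPE1-ERG cells the shares were 5.12%, 1.83%, 3.31% and 4.07% in the same order. In cells with ERG S96E they were 10.8%, 5.71%, 10.1% and 10.9%, so there the differences from peaks of like enrichment and from those shared with RWPE1-ERG alone were within the intervals. The regions were many and short, 492065 in RWPE1-Vector, 228153 in RWPE1-ERG and 252649 in ERG S96E cells, covering 7.96%, 4.56% and 7.37% of the chromosomes, and no H3K27me3 list of RWPE1-mAKT cells was analysed here.

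The mark dipped less at the centre of mAKT-alone peaks. In RWPE1-Vector cells, 12.1% of their central 300 bp windows and 13.6% of the flanks overlapped the mark, while peaks of all 3 lines had 3.97% at the centre and 9.11% in the flanks. Among peaks of all 3 lines at like enrichment the pair was 4.86% and 11%. In RWPE1-ERG cells the pairs were 4.58% and 6.76% for mAKT-alone peaks and 1.09% and 4% for peaks of all 3 lines. Within 1 kb of a gene start the mark covered 18.8% of mAKT-alone peaks in RWPE1-Vector, 13.9% in RWPE1-ERG and 30.3% in ERG S96E cells, against 12.8%, 4.6% and 9.69% of those further away. Requiring the mark to cover 50% of the peak gave 7.09%, 3.01% and 8.22% of all mAKT-alone peaks in the 3 lines.

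**Figure D3:**
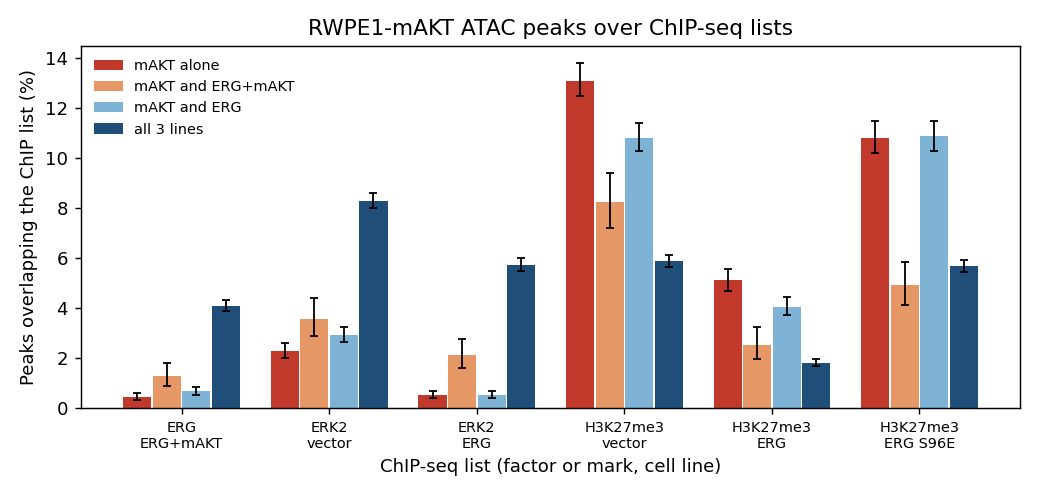
Percent of RWPE1-mAKT ATAC-seq peaks that overlap a peak or region of each ChIP-seq list, with the factor or mark and the RWPE1 line below, for the 4 classes of peak. Bars are shares and error bars 95% Wilson intervals, which cover counting error only. The mAKT-alone peaks are at 0.474% for ERG, below the 4.11% of peaks of all 3 lines, and at 13.1% for H3K27me3 of vector cells, above their 5.9%.

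Of the 6 regions with the highest enrichment, 3 are described here, and all 6 were covered by the list under the VCaP label. The peak at chr15:23692255-23692583 had a fold enrichment of 11.2 and covered an exon of GOLGA6L2, a golgin family gene. At chr2:231288737-231289143 it was 10.9, in an intron of SP100, a nuclear body component. At chr6:19731621-19731843 it was 10.8, in an intron of LNC-LBCS, 105758 bp from ID4, an inhibitor of helix-loop-helix factors. Of their nearest genes, SP100 had FPKM of 15, 16.9, 15.3 and 12.5 in the Vector, ERG, mAKT and ERG+mAKT lines, so the gene at this strong mAKT-alone peak was at about the same level in all 4. GOLGA6L2 was listed at 0 in all 4 lines and ID4 was at most 0.00978. Runs of at least 1 Mb of unsequenced bases lay within 1 Mb of 1.47% of mAKT-alone peaks, against 1.52% of peaks of all 3 lines.

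The other named regions were picked as the widest or as the strongest over an ERG peak. They therefore do not show how width and enrichment go together among all mAKT-alone peaks. The widest peaks were chr7:154452039-154454109, 2071 bp in a DPP6 intron and the source of the repeat shown at the start, chr3:12988530-12990581, 2052 bp in an IQSEC1 intron, and chr9:21520482-21522470, 1989 bp in an intron of MIR31HG. Their fold enrichments were 3.78, 3.54 and 2.63, all below the median of the mAKT-alone set. The strongest over an ERG peak were chr7:51670204-51670509 with 7.19, chr17:55685161-55685414 with 6.77 in an intron of MSI2, chr4:25955444-25955753 with 6.63 near SMIM20, chr10:31435914-31436438 with 6.53 near ZNF438 and chr19:16254147-16254576 with 6.03 in HSH2D. None of these 5 held an AP-1 or ETS sequence in its central window.

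The mAKT-alone peaks were assigned to 6040 nearest genes, 23.4% of the 25837 genes of the expression table on these chromosomes. For 3992 genes it was 1 peak, for 808 at least 3 and for 146 at least 5. Of the peaks, 4819 had a nearest gene whose FPKM reached 1 in any line, and 4670 had a nearest gene below that in all 4. The largest counts fell to long or isolated loci. ANKRD34A, with 12, has a merged locus on chromosome 1 from 144146811 to 146467744, and HLA-DRB5, with 10, and GPX6, with 9, were 331393 and 292002 bp from their closest peak. The others were LOC100126784 with 11, CTBP2, a transcriptional corepressor, with 9, and 8 each for ABLIM1, an actin-binding protein, BMP7, a bone morphogenetic protein, and COBL, an actin nucleator. ABLIM1 had FPKM of 20.4, 11, 25 and 22.7 in the Vector, ERG, mAKT and ERG+mAKT lines, and CTBP2 61.3, 52.4, 68.2 and 51.7.

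Genes nearest to mAKT-alone peaks had expression ratios close to those of all genes. Ratios are log2 of FPKM + 1 in RWPE1-mAKT over another line, for the 12527 genes whose FPKM reached 1 in any line, of which 3039 were nearest to a mAKT-alone peak. With 1 pooled value per line there is no spread and no test, and in bulk samples fewer cells of a type and less RNA per cell cannot be told apart. Over RWPE1-Vector the median ratio was 0.023 against 0.017 for all genes, and 22 nearest genes (0.724%) were at least 2-fold higher, where the share over all genes was 1.13%. At least 2-fold lower were 14 (0.461%), against 0.814%. Both shares were below those over all genes. They were above those of the 6673 expressed genes nearest to other RWPE1-mAKT peaks only, 0.584% higher and 0.405% lower. For the 2134 nearest genes of peaks outside the list under the VCaP label, 15 (0.703%) were higher and 9 (0.422%) lower. The added 1 makes folds of low genes smaller than their FPKM ratios.

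Against the ERG-expressing lines the shares were also near those over all genes. Over RWPE1-ERG the median was 0.052 against 0.040 for all genes, with 48 nearest genes (1.58%) at least 2-fold higher, against 1.46%, and 88 (2.9%) lower, against 3.58%. Over RWPE1-ERG+mAKT the median was 0.075 against 0.069, with 20 (0.658%) higher, against 0.854%, and 42 (1.38%) lower, against 2.03%. Genes nearest to other RWPE1-mAKT peaks only had smaller shares, 1% higher and 2.16% lower over RWPE1-ERG, and 0.584% and 1.21% over RWPE1-ERG+mAKT. Among genes with at least 2, 3 and 5 mAKT-alone peaks, which were 1041, 431 and 77 genes, the share 2-fold higher over RWPE1-ERG was 2.02%, 2.55% and 3.9%, and over RWPE1-ERG+mAKT it was 0.961%, 1.62% and 1.3%, the last of each resting on 3 genes and 1 gene. The share 2-fold lower was 3.94%, 3.48% and 2.6% over RWPE1-ERG, and 1.44%, 1.16% and 2.6% over RWPE1-ERG+mAKT. Over RWPE1-Vector the share higher was 0.768%, 0.464% and 0%, and the share lower 0.48%, 0.232% and 0%. Among the 77 genes with at least 5 mAKT-alone peaks, 0 were 2-fold higher and 0 lower than in RWPE1-Vector, 3 were higher and 2 lower than in RWPE1-ERG. The 196 genes with a peak within 1 kb of a gene start had 5 higher (2.55%) and 0 lower than in RWPE1-Vector, and 8 higher (4.08%) and 5 lower than in RWPE1-ERG, which are small counts.

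**Figure D4:**
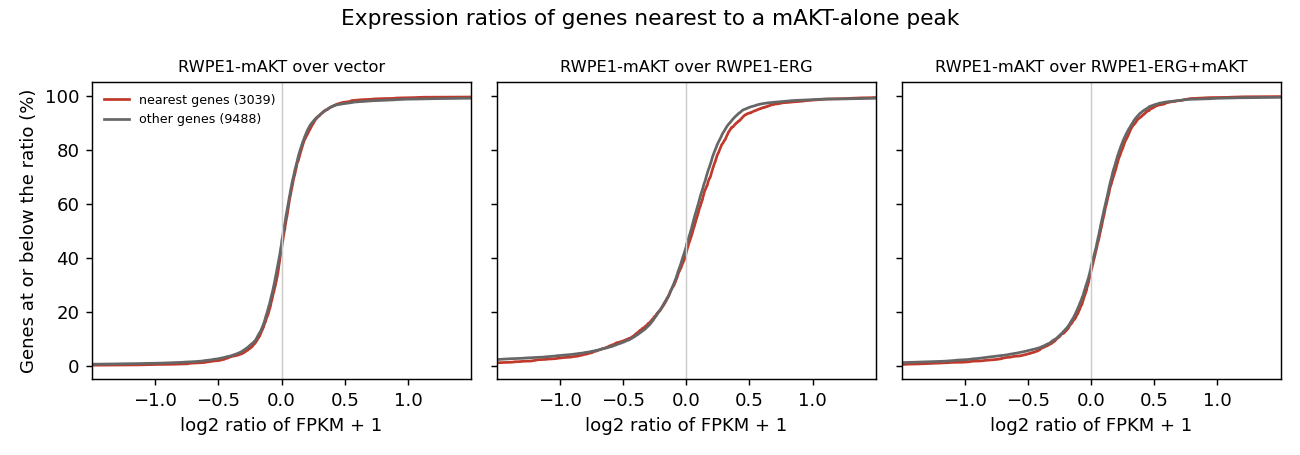
Cumulative percent of genes at or below a log2 ratio of FPKM + 1, for RWPE1-mAKT over each of the other 3 lines. Red is the 3039 genes nearest to a mAKT-alone peak and grey the 9488 other genes whose FPKM reached 1 in any line. The red and grey curves run close together in all 3 panels, with medians of 0.023, 0.052 and 0.075 in red.

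Names of small RNAs took many of the largest ratios. Of the 22 genes higher and 14 lower than in RWPE1-Vector, 9 and 5 were MIR or SNOR names, as were 9 of 48 and 7 of 88 against RWPE1-ERG and 8 of 20 and 13 of 42 against RWPE1-ERG+mAKT, whereas they were 456 of the 12527 genes tested. MIR6126, for instance, was listed at 0, 0, 33.4 and 10.8 in the Vector, ERG, mAKT and ERG+mAKT lines. The FPKM of a short RNA gene inside a host gene, measured in poly-A RNA, is uncertain, so the largest ratios of other genes were also listed, a choice made after the values were seen.

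Several of the other genes with large ratios belonged to squamous differentiation. KRT13, a keratin of stratified squamous epithelium, on chromosome 17 from 39657233 to 39661865, had 1 mAKT-alone peak at a distance of 906 bp. Its FPKM was 4.1 in RWPE1-Vector, 9.76 in RWPE1-ERG, 111 in RWPE1-mAKT and 148 in RWPE1-ERG+mAKT. The mAKT lines were high and the other 2 low. SPRR1B had 6.47, 1.48, 45.9 and 74.8 in the same order, and SPRR1A had 1, 0.367, 20.3 and 33.9. These 2 genes are close relatives whose reads may be shared, so their separate values are uncertain. S100A8, a calgranulin, 4697 bp from a mAKT-alone peak, had 3.64, 1.6, 13.9 and 137, and GJB2, a connexin, 233 bp from one, had 11.9, 8.75, 33 and 29.1.

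In these genes RWPE1-ERG+mAKT cells, where the nearby peaks were not called, were as high as RWPE1-mAKT cells or higher, except in GJB2. The log2 ratios of RWPE1-mAKT over RWPE1-ERG+mAKT were −0.42 for KRT13, −0.69 for SPRR1B, −0.71 for SPRR1A, −3.21 for S100A8 and 0.18 for GJB2. Over RWPE1-Vector they were 4.46, 2.65, 3.41, 1.69 and 1.40 in the same order. The list under the VCaP label had none of the mAKT-alone peaks nearest to KRT13, SPRR1A, SPRR1B and S100A8.

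Genes of the epidermal differentiation list had a median of 2 RWPE1-mAKT peaks of any class nearest to them. Of this list, 12 of 29 genes in the table were nearest to a mAKT-alone peak, against 23.4% of all genes. Among the 9 of them whose FPKM reached 1 in any line, 5 were at least 2-fold higher than in RWPE1-Vector (IVL, KRT13, KRT4, SPRR1A and SPRR1B), 5 were higher than in RWPE1-ERG (GRHL1, KRT13, KRT4, SPRR1A and SPRR1B), and 0 were higher and 2 lower (GRHL3 and IVL) than in RWPE1-ERG+mAKT. The median ratios of these 9 genes were 1.06, 1.03 and −0.61. Over all expressed genes, 1.13% were higher than in RWPE1-Vector and 1.46% higher than in RWPE1-ERG. Against RWPE1-ERG+mAKT, 0.854% of all expressed genes were higher and 2.03% lower. The 14 expressed genes of the list that were not nearest to such a peak had 3 higher than in RWPE1-Vector, 4 higher than in RWPE1-ERG and medians of 0.40 and 0.79, so genes of this list were 2-fold higher both with and without a mAKT-alone peak. KRT4, a mucosal keratin with 3 mAKT-alone peaks, had FPKM of 0.266, 0.107, 3.48 and 2.45 in the Vector, ERG, mAKT and ERG+mAKT lines. IVL had 0.26, 0.791, 1.64 and 4.43. GRHL1 and GRHL3, grainyhead factors that drive epidermal genes, had 1.76, 1.06, 3.2 and 5.42, and 0.743, 0.511, 1.29 and 4.7. DSC1 and DSG1, desmosomal cadherins with 4 and 3 mAKT-alone peaks, were at most 0.0758 in any line.

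**Figure D5:**
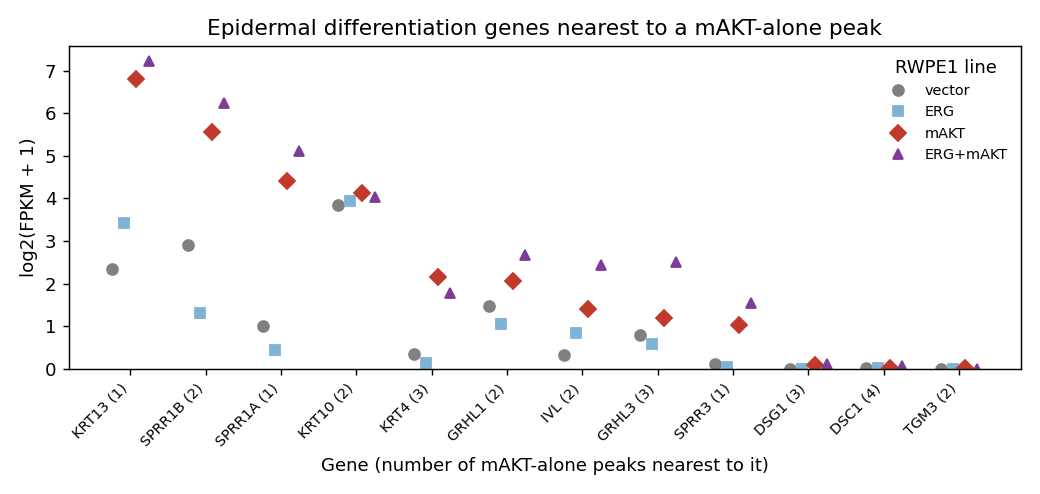
log2(FPKM + 1) of the 12 epidermal differentiation genes nearest to a mAKT-alone peak, with 1 pooled value for each RWPE1 line and the number of such peaks after each name. KRT13, SPRR1B, SPRR1A, KRT4 and IVL sit higher in both lines with mAKT than in RWPE1-Vector and RWPE1-ERG, while DSG1, DSC1 and TGM3 are near 0 in all 4 lines.

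Mesenchymal genes lay on the other side. Genes of the EMT list had a median of 4 RWPE1-mAKT peaks of any class nearest to them. Of this list, 14 of 21 genes were nearest to a mAKT-alone peak, against 23.4% of all genes, which were not matched for number of peaks. Of the 10 expressed, 3 were at least 2-fold lower than in RWPE1-Vector (CDH2, TNC and VIM), against 0.814% of all genes, 7 lower than in RWPE1-ERG, against 3.58%, and 0 lower than in RWPE1-ERG+mAKT, with medians of −0.64, −1.30 and 0.09. VIM, the mesenchymal intermediate filament vimentin, had FPKM of 737, 1056, 366 and 288 in the Vector, ERG, mAKT and ERG+mAKT lines. CDH2, N-cadherin, had 3.04, 7.38, 0.61 and 0.666, and THBS1, the matrix protein thrombospondin, 229, 491, 188 and 163. Open chromatin called in RWPE1-mAKT alone thus stood beside genes with lower FPKM in the mAKT lines than in RWPE1-ERG as well as beside genes with higher FPKM. The 6 expressed genes of the list without a mAKT-alone peak had medians of −0.41 and −0.43 over RWPE1-Vector and RWPE1-ERG.

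Genes at the low end against RWPE1-ERG included known matrix and enzyme genes. TGM2, a tissue transglutaminase with 3 mAKT-alone peaks, had FPKM of 8.73, 53.5, 5.36 and 4.18 in the Vector, ERG, mAKT and ERG+mAKT lines, and NNMT, a nicotinamide methyltransferase, had 12.7, 67.1, 7.31 and 33.3. ERG itself had 2 mAKT-alone peaks inside its locus on chromosome 21 from 39739183 to 40033704, with fold enrichments from 3.87 to 4.13, at an FPKM of 0.435. Low against RWPE1-Vector, among genes within 50 kb of a peak and with an FPKM reaching 5, were SERPINB2, a serine protease inhibitor, with 9.67, 9.04, 3.23 and 6.52, and LTBP1, a TGF-beta binding protein, with 5.84, 1.58, 2.03 and 1.16. High against RWPE1-ERG+mAKT under the same limits were KCNMA1, a potassium channel with 7 mAKT-alone peaks, at 39.9, 29.7, 46.4 and 18.4, and NRG1, an ERBB receptor ligand with 2, at 8.87, 5.47, 8.73 and 3.25. In both, RWPE1-ERG+mAKT was the lowest line and RWPE1-mAKT was close to RWPE1-Vector.

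In the AKT and PI3K pathway, 10 of 26 genes (38.5%) were nearest to a mAKT-alone peak, against 23.4% of all genes. Of these 10, 0 were 2-fold higher in RWPE1-mAKT than in any other line. AKT1 had no such peak. PIK3R1, a regulatory subunit of PI3K with 4, had FPKM of 10, 4.67, 9.31 and 11.4 in the Vector, ERG, mAKT and ERG+mAKT lines, with RWPE1-ERG the lowest. Of the FOXO list, 6 of 22 (27.3%) had a mAKT-alone peak, TRIB1 most with 5, and none of the 6 was 2-fold higher or lower in any of the 3 comparisons.

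The remaining lists gave few differences. Their shares of genes nearest to a mAKT-alone peak ran from 15.4% (AP-1) to 66.7% (endothelial), against 23.4% of all genes. Of the basal and hemidesmosome list, 6 of 16 had a mAKT-alone peak, and DST, a plakin that anchors hemidesmosomes, had 6 of them and FPKM of 22.2, 13.3, 33.9 and 33.3 in the Vector, ERG, mAKT and ERG+mAKT lines. Among these 6 genes, DST was the 1 that was 2-fold higher than in RWPE1-ERG, against 1.46% of all expressed genes. LAMB3 was the 1 that was lower, against 3.58%, with 115, 222, 94.2 and 99.1. None of the 6 differed 2-fold from RWPE1-Vector or RWPE1-ERG+mAKT. Of the luminal prostate list, 5 of 15 had a mAKT-alone peak, and TMPRSS2, with 2, was at most 0.0536. Of the 3 expressed, 1 was 2-fold lower than in RWPE1-ERG, against 3.58% of all expressed genes. It was KRT19, a luminal keratin with 1 such peak, at FPKM of 367, 956, 405 and 654 in the same order. None of the 3 differed 2-fold from RWPE1-Vector or RWPE1-ERG+mAKT. Of the AP-1 list, 2 of 13 had a mAKT-alone peak, and BATF among them was listed at 0 in all 4 lines. Of the ERK feedback list, 7 of 18 had one and none of the 6 expressed differed 2-fold in the 3 comparisons. Endothelial genes made 8 of 12, the same share as the EMT list, with a median of 4.5 RWPE1-mAKT peaks per gene. Leukocyte genes made 2 of 8 and neural genes 2 of 6. Except for ERG and EGFL7, which had 14.1, 22.3, 13.2 and 20.5, the genes of these 3 lists with a mAKT-alone peak were at an FPKM below 1 in all 4 lines.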

How the data were processed

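ATAC-seq regions of RWPE1-mAKT, RWPE1-ERG and RWPE1-ERG+mAKT cells, 1 library each, were set beside ChIP-seq lists and RNA-seq of the same lines. The authors aligned reads to hg19 with Bowtie2, removed duplicates with Picard and called ATAC-seq peaks with MACS2 in broad mode without a control. The RWPE1-mAKT header gives MACS 2.2.7.1 and a cutoff of 0.01. The deposited lists hold a pileup signal, a fold enrichment and −log10 p-values and q-values for each peak. The authors made FPKM with TopHat2 and Cuffdiff, and the deposited FPKM is pooled over 3 libraries per line. The fold changes, test statistics, p-values and q-values of the authors' own comparisons are in that table and were not used.

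Peaks were overlapped by at least 1 bp. Nearest genes come from the locus column of the FPKM table, and 74.1% of peaks had the same nearest gene with the GRCh37 annotation, from which gene starts, introns and exons were taken. Sequences were read from GRCh37 in the 300 bp around each centre. Shares have 95% Wilson intervals. FPKM ratios used a pseudocount of 1 and a minimum FPKM of 1 in any line, and 9 genes without a usable FPKM were left out. No test was run, because each line had 1 ATAC-seq library and 1 pooled FPKM. Named regions were the 6 of highest enrichment, the 3 widest and the 5 most enriched over an ERG peak. Named genes were their nearest genes, the 8 with the most peaks, the largest and smallest ratios among genes within 50 kb of a peak and with an FPKM of at least 5, list genes with several peaks and, after the values were seen, the same ratios without small RNA names and other list genes. The members and the 11 gene lists were chosen with earlier results of these data known. Overlap and sequence search were tested on simulated data. Analyses used pysam 0.24.0 and samtools 1.23.1 under Python 3.11.15, with scipy 1.17.1, pandas 2.3.3 and numpy 2.4.6. Alternatives covered the overlap, the significance limits, the windows, the gene positions, the pseudocount and the FPKM filter. A few genes, regions and sequences that these rules name are not reported here.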

Additional observations from a re-analysis of the deposited data

Results flagged for a closer look

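The list deposited under a label of VCaP cells treated with LY294002 was outside every comparison of lines, and it covered 41.3% of the mAKT-alone peaks (3919 of 9496). All 55471 of its peaks on these chromosomes carry names of an RWPE1 ATAC-seq run, which goes against its label. No control library was at hand for this share, and the line the list comes from was not tested.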

How the results depend on the processing

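In all, 23 results were recomputed under 14 settings, and 90 of the 136 values stayed within the interval or within 1.5 times of the main one, while 46 moved. Most of these results are counts, widths, enrichments or shares, which cannot change sign. They describe mAKT-alone peaks and their nearest genes, so differences from other classes of peak were not among the results recomputed. Requiring a −log10 q-value of at least 4 gave a median enrichment of 4.57, H3K27me3 over 11.8% (RWPE1-Vector), 3.83% (RWPE1-ERG) and 8.65% (ERG S96E) of mAKT-alone peaks, AP-1 in 28.2% and 4.69% within 1 kb of a gene start. The 33000 peaks of lowest p-value of each list gave 4207 mAKT-alone peaks and 3282 nearest genes. Leaving out the peaks under the list with the VCaP label, a choice made after seeing the data, gave 5577 peaks, a median width of 287 bp, a median enrichment of 3.85, ERK2 over 1.97% (RWPE1-Vector) and 0.377% (RWPE1-ERG), H3K27me3 of RWPE1-Vector over 14%, AP-1 in 25.9% and 4.48% within 1 kb of a gene start. Requiring the mark to cover 50% of the peak gave 0.0527% for ERG, 0.79% and 0.232% for ERK2 in RWPE1-Vector and RWPE1-ERG, and 7.09%, 3.01% and 8.22% for H3K27me3 in RWPE1-Vector, RWPE1-ERG and ERG S96E cells. ChIP-seq peaks with a −log10 q-value of at least 2 gave 0.0211% for ERG and 0.0316% and 0.0211% for ERK2. AP-1 was in 8.99% of 100 bp and 32.1% of 600 bp windows. With a pseudocount of 0.1, the shares of nearest genes at least 2-fold higher and lower were 1.18% and 0.888% over RWPE1-Vector, 2.93% and 4.61% over RWPE1-ERG, and 1.15% and 2.5% over RWPE1-ERG+mAKT, where the median ratio was 0.086. With no filter on FPKM they were 0.364% and 0.232%, 0.795% and 1.46%, and 0.331% and 0.696%, and the median ratios over RWPE1-Vector, RWPE1-ERG and RWPE1-ERG+mAKT and of RWPE1-ERG+mAKT over RWPE1-ERG were all 0.000. Shares over all genes are given at the main settings only. The shares at a pseudocount of 0.1 and with no filter therefore cannot be compared with all genes. An FPKM of at least 5 gave medians of 0.091 over RWPE1-ERG+mAKT and −0.054 for RWPE1-ERG+mAKT over RWPE1-ERG. The cause of these moves was not tested. No paired analysis was possible because FPKM was deposited as 1 pooled value per line and ATAC-seq had 1 library per line, so replicates could not be left out either.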
